A study of Mus musculus with 13 samples.

Results

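In sg-Ctrl 4T1 cells, 1364 of the 13204 NUP210 peaks (10.3%) covered the start of at least 1 listed transcript without reaching that transcript's end. They were selected on position alone: a peak belonged when the transcription start site (TSS) lay between its edges and the opposite end of the same transcript did not. The remaining 11840 peaks were the comparison, and comprised 1771 peaks that covered a gene end without its start, 900 that covered a whole gene, and 9169 that lay inside genes. The 1364 peaks covered the starts of 1472 genes, hereafter start-covered genes, which were 23.4% of the 6291 genes with a NUP210 peak. The remaining 4819 are called other NUP210 genes, and a gene whose start was covered only together with its end counts among these. For genes below, a covered start means a start covered without the end of the same transcript.

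4T1 is a mouse mammary tumor line derived from a BALB/c animal, and the labels give its strain as BALB/cJ. Per the study's methods, the guide RNA lines of 4T1 had been exposed to Cas9 from an adenovirus. The sg-Ctrl cells had a non-targeting guide, and the Nup210 knockout (KO) cells, KO-N13, are 1 clone made with a guide to exon 5 of Nup210. ChIP-seq for NUP210 and for the nuclear pore complex (NPC, antibody MAb414) was available in sg-Ctrl cells, and H3K4me3 and H3K27me3 in both, with 1 library per condition. A difference between KO and sg-Ctrl therefore has no replicate check and no p-value, and the clone and the gene loss cannot be told apart. The intervals below cover counting of reads, or spread over peaks or genes, and not variation between libraries.

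NUP210 is a membrane-spanning nucleoporin that sits in the nuclear envelope around the pore, and nucleoporins are known to touch chromatin as well as to carry transport. MAb414 recognizes nucleoporins with FG repeats and so marks the pore as a whole. H3K4me3 is deposited at the starts of active genes, most strongly at promoters rich in CpG dinucleotides, whereas H3K27me3 is laid down by Polycomb complexes over silent genes.

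The promoters of 6 genes show the range of starts that NUP210 peaks covered. They are RefSeq sequences (GRCm38.p6) from 250 bases before to 50 bases after the start, printed along the gene's strand with each CpG in capitals. Satb1 had the highest NUP210 enrichment of the set, and Ralgapa2 had a CpG-dense start with H3K4me3. Crisp1 and Hyal5 had CpG-poor starts and H3K27me3 in the NUP210 peak. Plcl1 and Bco2 had the highest and the lowest KO to sg-Ctrl H3K4me3 ratio among the genes eligible to be named.

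Satb1: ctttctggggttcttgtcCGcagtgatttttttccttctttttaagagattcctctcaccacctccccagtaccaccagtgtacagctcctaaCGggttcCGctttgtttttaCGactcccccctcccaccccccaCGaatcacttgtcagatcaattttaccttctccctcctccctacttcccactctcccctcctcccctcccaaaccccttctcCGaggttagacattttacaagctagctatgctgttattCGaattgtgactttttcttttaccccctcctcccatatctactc
Ralgapa2: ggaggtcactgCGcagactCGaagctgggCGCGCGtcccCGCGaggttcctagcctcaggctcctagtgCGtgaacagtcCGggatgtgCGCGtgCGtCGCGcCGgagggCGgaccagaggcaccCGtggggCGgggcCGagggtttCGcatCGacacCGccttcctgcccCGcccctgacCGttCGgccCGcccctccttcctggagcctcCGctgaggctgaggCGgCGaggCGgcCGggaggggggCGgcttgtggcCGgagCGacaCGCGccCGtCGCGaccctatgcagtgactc
Crisp1: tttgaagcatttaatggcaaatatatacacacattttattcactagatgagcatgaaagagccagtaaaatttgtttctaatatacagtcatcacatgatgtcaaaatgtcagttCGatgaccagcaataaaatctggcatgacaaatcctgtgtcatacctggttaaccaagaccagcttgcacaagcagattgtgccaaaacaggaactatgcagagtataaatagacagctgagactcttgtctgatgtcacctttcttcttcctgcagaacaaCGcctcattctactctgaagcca
Hyal5: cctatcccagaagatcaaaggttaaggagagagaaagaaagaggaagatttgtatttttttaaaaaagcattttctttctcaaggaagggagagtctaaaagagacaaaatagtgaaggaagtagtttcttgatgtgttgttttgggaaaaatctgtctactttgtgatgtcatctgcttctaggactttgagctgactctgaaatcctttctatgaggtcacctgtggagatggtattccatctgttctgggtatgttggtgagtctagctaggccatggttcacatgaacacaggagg
Plcl1: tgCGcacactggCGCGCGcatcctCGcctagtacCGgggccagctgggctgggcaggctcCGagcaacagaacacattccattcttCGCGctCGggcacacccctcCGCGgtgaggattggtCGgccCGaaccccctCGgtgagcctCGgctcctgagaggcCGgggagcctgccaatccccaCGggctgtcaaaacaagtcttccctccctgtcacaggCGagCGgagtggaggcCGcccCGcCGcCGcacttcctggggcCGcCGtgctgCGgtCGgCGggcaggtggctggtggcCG
Bco2: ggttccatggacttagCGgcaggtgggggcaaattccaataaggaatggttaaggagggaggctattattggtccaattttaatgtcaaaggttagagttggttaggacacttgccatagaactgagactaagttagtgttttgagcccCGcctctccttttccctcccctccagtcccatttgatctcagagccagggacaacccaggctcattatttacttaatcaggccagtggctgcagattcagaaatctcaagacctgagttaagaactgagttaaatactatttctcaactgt

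These windows lay at chr17:51812005-51812304 (minus strand) for Satb1, chr2:146511955-146512254 (minus) for Ralgapa2, chr17:40319158-40319457 (minus) for Crisp1, chr6:24857747-24858046 (plus) for Hyal5, chr1:55405696-55405995 (plus) for Plcl1 and chr9:50555089-50555388 (minus) for Bco2. They held 7, 39, 2, 0, 30 and 2 CpG in that order, and the start of each was the start listed for the gene. A promoter was found for 726 of the 878 start-covered genes with H3K4me3 (82.7%), with a median of 23.0 CpG (quartiles 14 and 31.0), against 7 over all 32851 RefSeq mouse promoters in the table (quartiles 3 and 20). GGGCGG or its reverse complement, the GC box, occurred in 61.3% of the 726 and 35.7% of all promoters, and CCAAT, also read on both strands, in 37.5% and 37.4%. TATAAA on either strand was found in 6.20% and 13.6%, TGACTCA in 2.89% and 5.20%, and CACGTG in 9.78% and 7.15%. The 726 were selected for H3K4me3 and all promoters were not, so these differences cannot be assigned to NUP210 coverage. Promoters with H3K4me3 at other genes were not compared. For start-covered genes without H3K4me3, 75.6% had a promoter sequence, under the 80% required, so no such value is given for them.

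The start-only peaks were wide and weakly enriched. Their width had a median of 20 kb (quartiles 13 and 36.0), against 14 kb for the other NUP210 peaks, and a wide peak has more room to cover a start, so width belongs to the rule rather than to the findings. The median fold over IgG was 1.14 (95% interval 1.13 to 1.15), from a median of 24.8 NUP210 and 21.7 IgG reads per kb. Of the 1364, 898 (65.8%) had an FDR of at most 0.05, against 69.0% of all NUP210 peaks, and 234 (17.2%) held fewer reads than the scaled IgG. At least 2-fold enrichment was reached by 15 start-only peaks (1.10%), out of 424 (3.21%) in the whole list. No NUP210 library from KO cells was used here, so the part of this signal that depends on NUP210 was not tested.

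Starts were spread along the whole peak. Over 1576 distinct covered starts, the peak reached a median of 8.54 kb upstream of the start and 9.62 kb into the gene. Starts of genes with H3K4me3 lay at a median of 43.8% of the peak's width from its upstream edge (95% interval 40.6 to 46.2), and those of genes without H3K4me3 at 51.2% (47.4 to 55.6). At the edge of the rule, 118 covered starts (7.49%) lay within 1 kb of a peak edge, the closest at 10 bp, and 156 peaks outside the set missed a start by at most 1 kb, the closest by 4 bp. The literal rule kept 250 peaks that also covered the end of some other listed transcript.

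**Figure D1:**
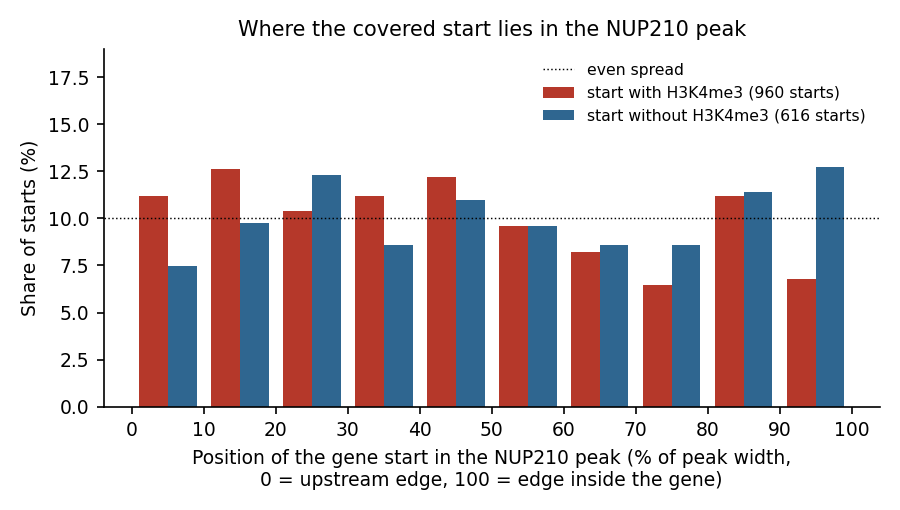
Position of each covered gene start within its NUP210 peak, in 10 equal bins from the upstream edge to the edge inside the gene, as the share of starts (%) for genes with (960 starts) and without (616 starts) an sg-Ctrl H3K4me3 peak. No bin held more than 12.7% or fewer than 6.46% of the starts of its kind, and the dotted line marks an even spread.

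Most start-only peaks belonged to 1 gene. There were 1239 such peaks, 123 with 2 genes, 1 with 3 and 1 with 11. In 121 of the 123 peaks the 2 genes lay on opposite strands, in 108 they pointed away from each other, and in 74 their starts were within 1 kb, at a median of 179 bp. Both genes carried sg-Ctrl H3K4me3 in 73 of those 74 head-to-head pairs. H3K4me3 peaks were listed for starts within 4.00 kb, so 1 peak could be listed for both genes, and their agreement is not a separate result. The pair with the highest enrichment was Aimp1, a scaffold of the aminoacyl-tRNA synthetase complex, and Tbck, 264 bp apart under 1 peak at chr3:132674001-132692000. The peak with 11 entries was at chr17:51273001-51286000 and listed copies of Mir669a and Mir669p with long spans (335 kb for Mir669a-10), so these entries are not the hairpins themselves. Such names made up 20 of the 1472 genes.

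The 10 peaks with the highest fold, among those with an FDR of at most 0.05 and at least 50 reads, were short and mixed in their marks. Satb1, which encodes a chromatin organizer that binds AT-rich DNA, held 135 NUP210 reads (95% Poisson interval 113 to 160) and 42 IgG reads at chr17:51810001-51816000, a 3.18-fold enrichment, with neither mark in sg-Ctrl and 91 H3K4me3 reads in KO. Zcchc4, an RNA methyltransferase gene, held 157 and 62 reads at chr5:52782001-52786000 (2.50-fold) on a start with H3K4me3. Fmn2, encoding an actin-nucleating formin, had 118 and 48 reads at chr1:174500001-174506000 (2.43-fold), and Kcnj16, a potassium channel gene, had 234 and 100 reads at chr11:110994001-111004000 (2.31-fold). Neither Fmn2 nor Kcnj16 had H3K4me3 or H3K27me3 in either list. Adam26a at 2.32-fold, Crisp1 at 2.22-fold and Hyal5 at 2.02-fold, 3 genes known from the testis or epididymis, had H3K27me3 in the NUP210 peak. Ralgapa2 at 2.31-fold, Usp22 at 2.16-fold and the Aimp1 and Tbck peak at 2.12-fold had H3K4me3. An NPC peak overlapped 3 of the 10, at Crisp1, Aimp1 with Tbck, and Hyal5.

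The widest start-only peaks showed the opposite balance of width and enrichment. Arhgap42, which encodes a GTPase-activating protein, had its start in a peak of 258 kb at chr9:9034001-9292000 with 9415 NUP210 and 9700 IgG reads, 0.960-fold. Those of Cntn5 (257 kb), Rfx3 (240 kb), Ccdc82 (229 kb) and Mettl15 (205 kb) lay between 1.02-fold and 1.12-fold. At Cntn5, a contactin gene of neurons, 74.7% of the peak was in sg-Ctrl H3K27me3, whereas at Rfx3, a regulator of cilia, there was none and the start carried H3K4me3.

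Start-covered genes fell into 2 main kinds of chromatin. In sg-Ctrl, 774 of the 1472 genes (52.6%, 95% Wilson interval 50 to 55.1) had an H3K4me3 peak and no H3K27me3 in the NUP210 peak, and 367 (24.9%, 22.8 to 27.2) had H3K27me3 and no H3K4me3. Both marks were found for 104 (7.07%, 5.86 to 8.49) and neither for 227 (15.4%, 13.7 to 17.4). H3K27me3 reached the start itself in 3.42% of the genes with H3K4me3 (30 of 878) and in 52.2% of those without (310 of 594), so most genes counted with both marks held H3K27me3 elsewhere in the same NUP210 peak. Among other NUP210 genes the split was alike, with a NUP210 peak in H3K27me3 for 12% of 2393 genes with H3K4me3 and 64.0% of 2426 without, beside 11.8% and 61.8% for start-covered genes.

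H3K4me3 was more frequent at start-covered than at other NUP210 genes. An sg-Ctrl H3K4me3 peak was listed for 878 start-covered genes, 59.6% (57.1 to 62.1), against 49.7% (48.2 to 51.1) of the other NUP210 genes and 57.0% (54.4 to 59.5) of the 1460 genes with a covered end and no covered start. The interval of the start-covered genes overlapped that of the end-covered genes and not that of the other NUP210 genes as a whole. Of 695 olfactory receptor genes with a NUP210 peak, 27 had a start covered without the end, so most of this family was among the other NUP210 genes. None of the 27 had H3K4me3, and the shares without this family were not computed. With NUP210 peaks of at least 1.5-fold, the start-covered share was the lower, at 42.3% (33.6 to 51.6) against 47.1% (44.4 to 49.8) of other genes. These intervals overlapped. Median peak width was 23.0 kb for genes with H3K4me3 alone, 19 kb with H3K27me3 alone, 25.5 kb with both and 16.0 kb with neither, and median NUP210 fold was 1.12, 1.15, 1.09 and 1.21.

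**Figure D2:**
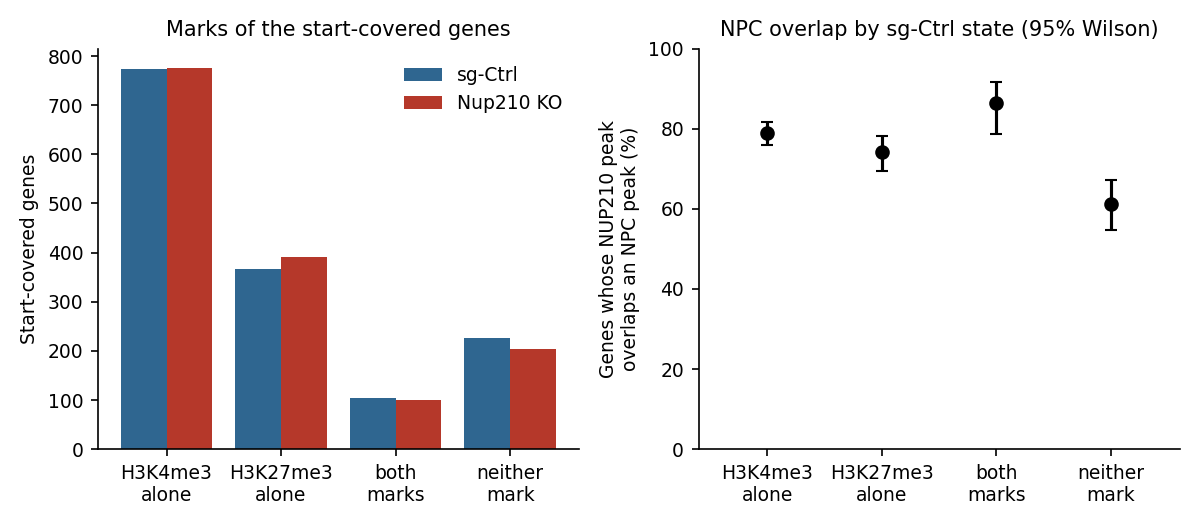
Left, number of start-covered genes by mark in sg-Ctrl (blue) and Nup210 KO (red), with 774 and 776 genes carrying H3K4me3 alone and 367 and 391 carrying H3K27me3 alone. Right, share of genes (%) whose NUP210 peak overlapped an NPC peak, by sg-Ctrl state with 95% Wilson intervals, lowest for neither mark at 61.2% and highest for both at 86.5%.

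The state of a start-covered gene, with H3K27me3 read over the whole NUP210 peak, was mostly the same in KO. H3K4me3 alone was kept by 751 of 774 genes (97.0%), H3K27me3 alone by 335 of 367 (91.3%), both marks by 80 of 104 (76.9%) and neither by 171 of 227 (75.3%). Among genes with both marks, 22 had H3K4me3 alone in KO, and among genes with neither, 53 had H3K27me3 alone. No gene went from H3K27me3 alone to H3K4me3 alone. The H3K27me3 library of KO cells was the deeper, with 26811061 reads in peaks against 7719297, and the part of depth in the 53 was not tested.

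H3K4me3 at start-covered genes was lower in KO than in sg-Ctrl, and more so than at genes without a NUP210 peak. The values are reads per kb of the TSS peak, scaled to library size through the shared IgG. The 868 start-covered genes with a TSS peak in both lists went from a median sg-Ctrl density of 761 scaled reads per kb to 479 in KO, with peak widths of 4.80 and 5.40 kb. The median log2 ratio was −0.66 (95% interval −0.69 to −0.63), against −0.58 (−0.60 to −0.56) for 2344 other NUP210 genes, −0.58 for 817 end-covered genes, −0.46 (−0.47 to −0.45) for 8985 genes without a NUP210 peak and −0.50 for all 12197 genes. The ratio was below 0 in 821 of the 868 (94.6%). Because the whole distribution was shifted, the difference from the median of all genes is the more informative value, and it was −0.16 for start-covered genes, −0.08 for other NUP210 genes and 0.04 for genes without a peak.

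At least 2-fold lower H3K4me3 was found at 131 start-covered genes (15.1%, 12.9 to 17.6), beside 9.66% of all genes and 12.9% (11.6 to 14.3) of other NUP210 genes, whose interval overlapped. The start-covered share was below that of other NUP210 genes with NUP210 peaks at an FDR of at most 0.05 (12.8% and 13.2%), with peaks of at least 1.5-fold (6.38% and 11.1%) and by the total scaled reads of the TSS peaks (9.33% and 9.39%). In each of these settings the intervals overlapped, at 1.5-fold 2.19 to 17.2 and 8.86 to 13.9. At least 2-fold higher was found at 3 (0.346%, 0.118 to 1.01), beside 0.525% of all genes. Scaling by the reads of the 575 peaks with identical edges in both lists raised each ratio by 0.47 on the log2 scale, which moved the median of all genes from −0.50 to −0.03 and left 12 start-covered genes lower and 7 higher. The start-covered median was then −0.19, the other NUP210 genes were at −0.11 and genes without a peak at 0.00, a shift that leaves the differences between the groups as they were by construction and changes the number past 2-fold. On 18 of 20 chromosomes the start-covered median was below that of other NUP210 genes, and on 19 of 20 below that of genes without a peak.

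The sg-Ctrl level of H3K4me3 moved with this result. Start-covered genes had a median of 761 scaled reads per kb in sg-Ctrl, other NUP210 genes 635 and genes without a peak 505, and 440 of the 868 lay in the highest of 4 equal bins of all genes by that level, above 756 reads per kb. Within that bin the medians were −0.76 (−0.79 to −0.73), −0.77 (−0.80 to −0.74) and −0.73 (−0.75 to −0.72) for start-covered, other NUP210 and no-peak genes. In the third bin they were −0.61, −0.60 and −0.54, in the second −0.48, −0.41 and −0.39, and in the lowest −0.23, −0.17 and −0.18. The intervals of start-covered and other NUP210 genes overlapped in all 4 bins. Such overlap is not a test of a difference, and the bins do not match sg-Ctrl level exactly. The share at least 2-fold lower was 20.5% in start-covered and 23.6% in other NUP210 genes of the highest bin. In the lowest bin it was 13.9% (11 of 79, 7.96 to 23.2) and 5.12% (22 of 430, 3.4 to 7.62), and these intervals did not overlap. In the third bin the start-covered interval (−0.65 to −0.56) met that of no-peak genes (−0.56 to −0.52) only at its bound. A low sg-Ctrl value also enters the ratio itself, so a bin is not independent of the ratio.

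**Figure D3:**
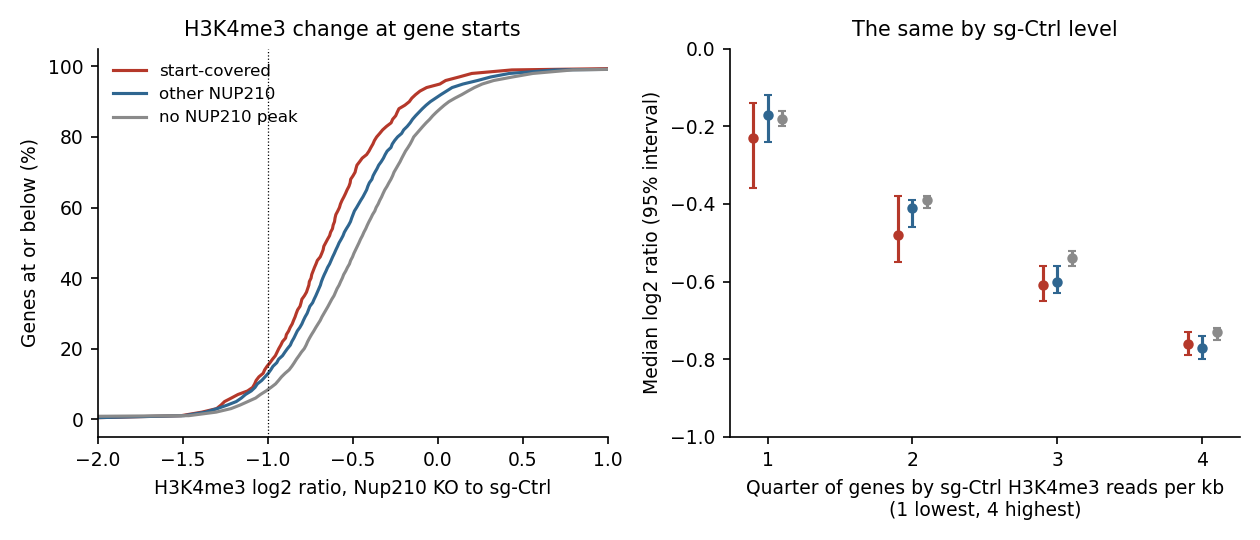
Left, cumulative share of genes (%) by H3K4me3 log2 ratio of Nup210 KO to sg-Ctrl for start-covered genes (red), other NUP210 genes (blue) and genes without a NUP210 peak (grey), with a dotted line at 2-fold lower. Right, medians with 95% intervals in the same colors within 4 equal bins of sg-Ctrl H3K4me3 level, where the 3 groups lie close together and start-covered medians run from −0.23 in the lowest bin to −0.76 in the highest.

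Genes were named from the 787 start-covered genes with overlapping TSS peaks in the lists and 100 or more reads in the larger of the pair. The lowest ratio was at Bco2, a carotenoid-cleaving oxygenase gene, with 341 sg-Ctrl reads over 1.40 kb and 131 KO reads over 2.20 kb, for a log2 ratio of −2.38 (counting interval −2.68 to −2.08). Cp, encoding the copper protein ceruloplasmin, went from 8212 to 3184 reads (−1.66), and Ets1, a transcription factor gene, from 10545 reads over 6.20 kb to 9088 over 12.4 kb (−1.56). At Ets1 the KO peak was wider by more than its reads were fewer. Hjurp, the chaperone gene of the centromeric histone CENP-A, went from 17027 to 12897 reads (−1.53) while its peak widened from 5.80 to 10 kb, and Rock1, which encodes a kinase that controls actomyosin contraction, from 7595 to 3433 reads at nearly constant width (−1.54). Zfand6 at −1.48, the dynein regulator Ndel1 at −1.47 and the deubiquitinase gene Vcpip1 at −1.45 completed the 8. Of these 8, the NUP210 peak had an FDR of at most 0.05 at Bco2, Cp, Rock1, Ndel1 and Vcpip1 and an FDR of 1.00 at Ets1 and Hjurp, where NUP210 reads were at or below scaled IgG.

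The highest ratios were at starts with little H3K4me3 in sg-Ctrl. Plcl1, encoding a phospholipase C-like protein without catalytic activity, had 72 sg-Ctrl and 630 KO reads, giving a log2 ratio of 1.20 (0.85 to 1.57). Dlc1, known as a tumor suppressor gene, had 170 and 1081 reads (1.13), but at chr8:36612601-36614000, outside the NUP210 peak that covered another of its starts at chr8:36950001-37064000. Kirrel3 (0.91), Angpt1, a ligand of the Tie2 receptor (0.81), Tspan8 (0.60), Car2, a carbonic anhydrase gene (0.51), Sema3a (0.44) and the chaperone gene Hspa4l (0.44) followed. Among these 8, the sg-Ctrl density of Hspa4l was 466 scaled reads per kb and that of the others between 56.6 and 183, whereas the 8 lowest had 230 at Bco2 and 1022 to 2767 elsewhere. The remaining gene past 2-fold higher, 4930468A15Rik, had 47 and 242 reads. The TSS peaks of 834 of the 868 genes (96.1%) lay on the NUP210 peak that covered the start, and these had a median of −0.66.

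**Figure D4:**
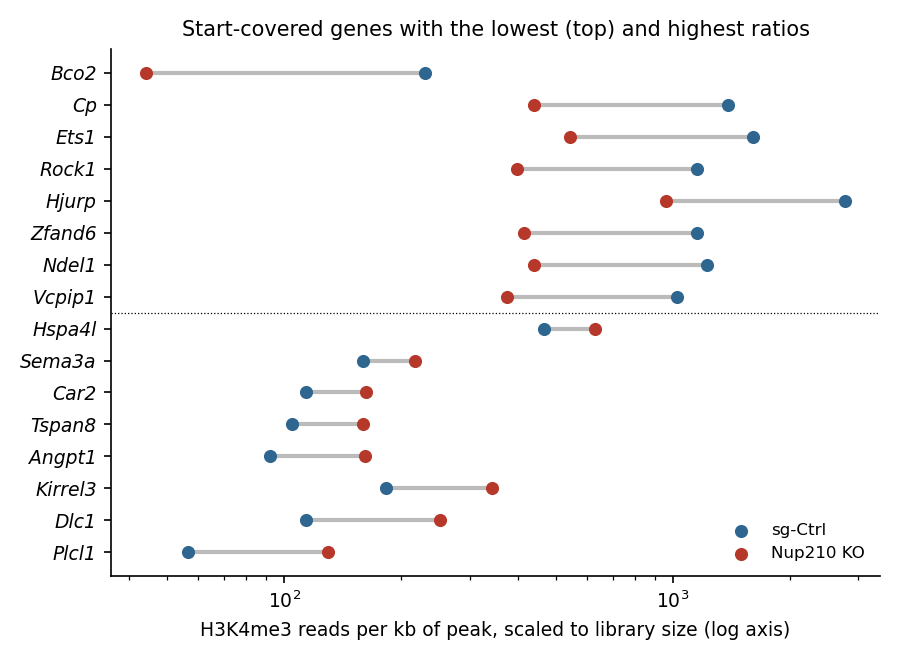
H3K4me3 reads per kb of TSS peak, scaled to library size (log axis), in sg-Ctrl (blue) and Nup210 KO (red) for the 8 start-covered genes with the lowest log2 ratios, above the dotted line, and the 8 with the highest, below it. Bco2 went from 230 to 44.2, and Plcl1 from 56.6 to 130.

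H3K27me3 overlapped start-only and end-only peaks at close shares. An sg-Ctrl H3K27me3 peak overlapped 450 of the 1364 (33.0%, 30.5 to 35.5) and a KO peak 463 (33.9%, 31.5 to 36.5). Other NUP210 peaks were at 35.1% (34.3 to 36.0) and 35.8% (34.9 to 36.6), end-only peaks at 33.2% and 34.0%, and peaks over whole genes at 46.7% and 54.2%. At least 50% of the peak was covered in sg-Ctrl for 25.4% (23.2 to 27.8) of start-only peaks and 30.0% (29.1 to 30.8) of the others, and these intervals did not overlap. The start itself was inside sg-Ctrl H3K27me3 for 22.7% (20.7 to 24.8) of 1576 starts, beside 26.0% (24.1 to 28) of the 1990 ends covered by end-only peaks.

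Few start-only peaks had H3K27me3 in 1 of the 2 lists. There were 58 with H3K27me3 in KO alone (4.25%, 3.30 to 5.46), beside 4.92% of all NUP210 peaks, and 45 in sg-Ctrl alone (3.30%, 2.47 to 4.39), beside 4.25%. H3K27me3 covered 8.94 Mb of the start-only peaks in sg-Ctrl and 9.34 Mb in KO, 1.04 times as much, and the ratio was 1.07 over the other NUP210 peaks. Of 508 start-only peaks with the mark in either list, 146 had more covered length in KO, 124 less and 238 the same. H3K27me3 regions that touched a start-only peak and occurred in both lists had a median log2 ratio of scaled reads of 0.01 (−0.06 to 0.08) over 417 regions. Of these, 37 (8.87%) were at least 2-fold higher in KO, beside 12.1% of all such regions, and 41 (9.83%) at least 2-fold lower, beside 9.56%.

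The largest gains of H3K27me3 length were at starts without H3K4me3. The peak at Tmprss15, the enteropeptidase gene, had no H3K27me3 in sg-Ctrl and was covered over all 92.0 kb in KO (chr16:79061001-79153000). At Pak7, a kinase gene, coverage went from 6 to 71.0 kb, at Cntn5 from 192 to 249 kb, at Tll1, a tolloid-like protease gene, from 35.0 to 84.0 kb, and at March1, a ubiquitin ligase gene, from 61.0 to 95 kb. None of these 5 had H3K4me3 in either list. The highest H3K27me3 fold over IgG was lower in KO at Cntn5 (1.36 in sg-Ctrl and 1.30 in KO) and higher at Pak7, Tll1 and March1. The KO H3K27me3 library was the deeper, and the part of depth in covered length was not tested. The largest losses were at Scin, encoding an actin-severing protein (38.0 to 0 kb), Bmp5 (52.0 to 17.0 kb), Atxn7l3b (34.0 to 0 kb), the collectin gene Colec10 (34.0 to 4.00 kb) and Plcl1 (27 to 0 kb). Scin, Atxn7l3b and Plcl1 had H3K4me3 in both lists, with log2 ratios of 0.30, 0.23 and 1.20, where 94.6% of start-covered genes were below 0. At Atxn7l3b the H3K4me3 reads were fewer in KO, 944 against 1414, and the ratio per kb was above 0 because the KO peak was narrower.

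H3K4me3 ratios above 0 made up a larger share of start-covered genes with H3K27me3 in the NUP210 peak than of those without, though on few genes. The share above 0 was 17.0% (8 of 47) with less H3K27me3 length in KO, 11.9% (5 of 42) with equal length and 10.7% (3 of 28) with more, against 4.13% (31 of 751) without the mark in either list. No intervals were computed for these shares, and the genes were not matched for sg-Ctrl H3K4me3 level, with which the ratio varied. The 22 genes whose NUP210 peaks had H3K27me3 in sg-Ctrl and none in KO had a median of −0.62 (−0.80 to 0.13), and 6 of them (27.3%) were above 0. The 751 without the mark had a median of −0.66 (−0.69 to −0.63), and the 15 that gained it a median of −0.82 with 1 above 0. Among other NUP210 genes the shares above 0 were 18.3% with less, 26.3% with equal and 24.3% with more H3K27me3 length in KO, and 6.67% without the mark. The genes with both marks and the most sg-Ctrl H3K27me3 reads per kb were Nadkd1, Ppp2cb, a catalytic subunit gene of protein phosphatase 2A, Ccdc73, Ccdc82 and Efha2. Their scaled H3K27me3 density went from 119 to 68.6, 111 to 69.2, 109 to 75.7, 100 to 99.3 and 98.7 to 95.7 reads per kb. These genes were selected for a high sg-Ctrl value, which by itself favors a lower KO value, so the changes are a description only.

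The NPC signal overlapped start-only peaks more often than other NUP210 peaks, and the difference followed peak width. An NPC peak overlapped 1028 of the 1364 (75.4%, 73.0 to 77.6), 69.6% (68.7 to 70.4) of other NUP210 peaks and 72.7% of end-only peaks. Within width classes the start-only share was the lower in the 3 classes up to 20 kb and within 1 percentage point of the other peaks in the wider 2. It was 35.6% (23.2 to 50.2) against 44.9% (42.2 to 47.6) of other peaks up to 5 kb, 48.3% against 55.0% over 5 to 10 kb, 64.5% against 69.3% over 10 to 20 kb, 88.4% against 88.1% over 20 to 40 kb and 98.9% against 98.6% above 40 kb. The covered start itself lay in an NPC peak for 53.2% (50.8 to 55.7) of starts, and the covered end of end-only peaks for 61.3% (59.1 to 63.4). The 336 start-only peaks without NPC were 24.6% of the set. Among NUP210 peaks of at least 1.5-fold the start-only share was the lower, at 39.8% (31.1 to 49.2) against 44.6% (42.3 to 46.9) of other peaks. These intervals overlapped. Of the NPC peaks, 48.3% had an FDR over 0.05, and with those left out the shares were 38.6% for start-only and 36.1% for other NUP210 peaks.

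**Figure D5:**
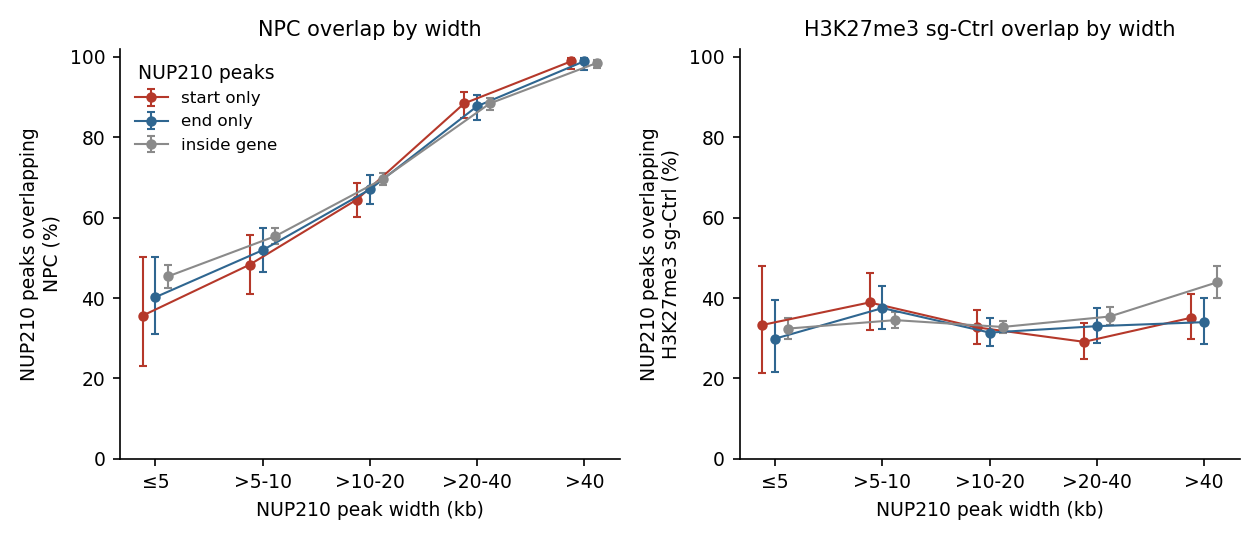
Share of NUP210 peaks (%) that overlapped an NPC peak (left) or an sg-Ctrl H3K27me3 peak (right) by peak width in kb, for start-only, end-only and inside-gene peaks, with 95% Wilson intervals. NPC overlap of start-only peaks went from 35.6% to 98.9% with width, alongside the other classes, and H3K27me3 overlap stayed between 29.1% and 38.9%.

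By reads per kb of the overlapping NPC peaks, scaled to library size, the highest start-only peaks were at Ifi202b, an interferon-inducible gene (124), Cd244 (86.2) and Tspan8 (75.9), and the lowest at Tmem170b (25), Pkd1l3 (26.9) and Lrriq3 (27.1). The NPC fold over IgG was 1.02, 1.04 and 1.79 for the first 3 and 1.08, 1.27 and 1.05 for the last 3. Ifi202b had 71.4 IgG reads per kb in its NUP210 peak, the highest of the start-only peaks, whose median was 21.7.

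Among gene families, the share of NUP210 genes with a covered start was 23.4% over all genes and varied widely. A transcript covered at both ends does not meet the rule, so gene span enters these shares. The median listed span was 45.0 kb for start-covered genes and 34.1 kb for other NUP210 genes, and the families were not matched for span. Vomeronasal receptors, which detect pheromones, had 41 covered starts among 114 genes with a NUP210 peak (36.0%), and olfactory receptors 27 among 695 (3.88%). None of these start-covered genes had H3K4me3, and 26 and 12 had H3K27me3 in the NUP210 peak. Vmn2r107 was the vomeronasal gene with the highest fold, at 730 NUP210 and 396 IgG reads over 24.0 kb (1.82-fold), followed by Vmn2r27 (1.77-fold), Vmn2r65 (1.76-fold) and Vmn2r76 (1.72-fold). Some members of these families are closely similar, and reads may be split among such copies. Cytochrome P450 genes had 9 of 26 (34.6%), of which 7 had H3K27me3 in the peak, and protocadherins 7 of 27 (25.9%), of which 6 did. Pcdha1, the protocadherin with the highest fold, had 510 and 296 reads (1.70-fold), and Pcdha6 and Pcdha7 shared 1 peak, as did Pcdha8 and Pcdha9.

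The other families held both kinds of start, where 59.6% of all start-covered genes had H3K4me3 and 15.1% of those with a ratio were at least 2-fold lower. Mitochondrial ribosomal protein genes had 5 covered starts of 9 genes, Mrps31, Mrpl15, Mrpl1, Mrps9 and Mrps14, and all 5 had H3K4me3, with 1 at least 2-fold lower (Mrpl15, −1.05). Zinc finger (Zfp) genes had 16 of 92 (17.4%), 13 with H3K4me3 and 5 with H3K27me3. Solute carriers had 20 of 82 (24.4%), 11 with H3K4me3 and 9 with H3K27me3, and ubiquitin-specific proteases 6 of 20 (30.0%), 5 with H3K4me3 and 1 with H3K27me3. Kinesins had 2 of 9, Kcn potassium channel genes 4 of 27, 3 of them with H3K27me3 and none with H3K4me3, and the axon guidance and synapse list 4 of 31. Sox genes had 1 of 4 (Sox30) and keratins 1 of 1 (Krt20), both with H3K27me3 alone in sg-Ctrl, and no covered start was found among 5 forkhead genes, 1 cytosolic ribosomal protein gene and 2 LINC complex and lamina genes with NUP210 peaks. No Hox or histone cluster gene had a NUP210 peak.

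Of the focal adhesion and cytoskeleton list, 14 of 51 genes had a NUP210 peak and 4 had a covered start, each with H3K4me3 in both lists. H3K4me3 at Itgb1, the beta-1 integrin gene, went from 14561 to 10789 reads (log2 ratio per kb −1.35), at Itgav, the alpha-v integrin gene, from 5913 to 4895 (−0.62), at Lims1 from 6987 to 3953 (−0.90) and at Rock1 as given above. The NUP210 peak was 1.28-fold at Lims1, 1.21-fold at Rock1, 1.03-fold at Itgb1 and 0.868-fold at Itgav, the last with 288 NUP210 and 328 IgG reads. Of 16 Polycomb and Trithorax genes with a NUP210 peak, the starts of Ezh2, the H3K27 methyltransferase gene (1.52-fold), Dpy30 (1.15-fold), Rnf2 (1.09-fold) and Rbbp5 (1.01-fold) were covered, with log2 H3K4me3 ratios of −0.21, −0.63, −0.25 and −0.91. Nup160 (1.20-fold, −0.16) and Nup54 (1.08-fold, −0.51) were the 2 covered nucleoporins of 12. Of 4 covered axon guidance and synapse genes, Sema3e (−1.38) was at least 2-fold lower, Sema3c had H3K4me3 in sg-Ctrl alone (179 reads), Sema3a was higher in KO, as given above, and Nrxn3 had neither mark.

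Of a list of 9 genes that the paper follows, Nup210 among them, none had a covered start. Cxcl3, Postn and Ptk2 had NUP210 peaks at gene ends, and Ptk2 1 more inside the gene, at 1.14-fold, 1.07-fold and 0.943-fold at most. H3K4me3 at the Nup210 start was 885 reads in sg-Ctrl and 913 in KO, which does not test the knockout, since the guide acts in exon 5. The 6 epithelial markers Krt8, Krt18, Krt7, Epcam, Cldn7 and Cldn4 had H3K4me3 in sg-Ctrl at 296 to 544 scaled reads per kb, and none of Ptprc, Cd3e, Pecam1, Cdh5 and Adipoq did. Ptprc, the leukocyte marker CD45, had a covered start in a 56.0 kb peak, 71.4% of it in sg-Ctrl and 33.9% in KO H3K27me3. In these bulk libraries, a mark on fewer cells and less of the mark per cell cannot be told apart.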

How the data were processed

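The 6 ChIP-seq peak lists of 4T1 cells were used, each from 1 library. The authors called peaks with SICER against IgG, with a window of 200 bp for H3K4me3 and 1000 bp for NUP210 and H3K27me3. The authors deposited, for each pair of a peak and a transcript, raw counts of ChIP and IgG reads, a p-value and its FDR, and the fold over IgG, a ratio scaled by library size. Per the labels, the same rabbit IgG served both histone marks. H3K4me3 entries list peaks within 4.00 kb of a start. The aligner used for ChIP-seq and the NPC window are not given in the sources used here, and the submitters' processing notes name several mouse builds.

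Entries were collapsed to distinct peaks. Library ratios were recovered from reads and fold, 1.01 for NUP210, 0.606 for NPC, 0.847 and 2.68 for H3K27me3 and 1.06 and 1.35 for H3K4me3 in sg-Ctrl and KO, and reads were divided by them. A gene's H3K4me3 was its TSS peak with the most scaled reads per kb. Overlap required 1 bp. Reads in peaks ranged from 5866175 (NPC) to 26811061 (KO H3K27me3), and depth outside peaks is unknown. Listed starts matched RefSeq GRCm38.p6 exactly for 77.7% of 1175 genes with a promoter sequence, so coordinates are GRCm38. Peak coordinates are given from 1.

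Intervals at 95% are Wilson for shares, order statistics for medians, exact Poisson for reads and exact binomial for read ratios. Those for shares and medians treat peaks or genes as independent draws, although genes can share a peak. Those for reads and read ratios cover counting error, and reads are not independent molecules. With 1 library per condition there is no test. Genes named are the 10 highest folds, 5 widest peaks, peaks with 4 or more starts, 8 lowest and 8 highest H3K4me3 ratios, 5 largest H3K27me3 gains and losses, 5 densest with both marks, 3 highest and lowest NPC, members of 23 gene lists and 9 genes that the paper follows, passing over clone names. The members, lists and rules were chosen with earlier results of these data known. The rule, overlaps and ratios were tested on simulated data. Analyses used Python 3.11.15, pandas 2.3.3 and scipy 1.17.1. RNA-seq was not analysed here. A marker gene of the cell type check is not reported here.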

Additional observations from a re-analysis of the deposited data

How the results depend on the processing

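No paired analysis was possible because each ChIP-seq condition has 1 library. The set shrank from 1364 to 898 peaks at a NUP210 FDR of at most 0.05 and to 108 at 1.5-fold over IgG, and to 1114 where no end may be covered. Counts and shares therefore rest on weak enrichment, and shares of start-covered genes past 2-fold H3K4me3 on the scaling.

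Among the start-only peaks, the NPC share of 75.4% became 39.8% at 1.5-fold, 72.3% under the strict rule, 63.2% with at least 50% of the peak overlapped or with widths of 10 to 20 kb (10 kb included), and 38.6% with NPC peaks at an FDR of at most 0.05. Among the other NUP210 peaks, 69.6% became 44.6%, 70%, 59.8%, 68.3% and 36.1%, with 67.8% at a NUP210 FDR of at most 0.05, 70.4% on autosomes and 72.7% for end-only peaks. The start-only share was the lower at 1.5-fold and at 10 to 20 kb, with overlapping intervals in both. H3K27me3 shares with at least 50% of the peak overlapped were 25.4% (sg-Ctrl) and 26.2% (KO) for start-only peaks and 30.0% and 31.5% for the others. The others were at 31.3% and 32.6% at 1.5-fold, 33.2% and 33.4% with H3K27me3 peaks at an FDR of at most 0.05, 34.0% and 34.6% at 10 to 20 kb, and 33.2% and 34.0% for end-only peaks. The start-only shares were the higher at 1.5-fold (31.5% and 35.2%) and, in KO, at 10 to 20 kb (35.2%), again with overlapping intervals.

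H3K4me3 was listed for 56.4% of start-covered genes at a NUP210 FDR of at most 0.05 and 42.3% at 1.5-fold, and for 47.1% of the others at 1.5-fold. The start-covered median log2 ratio of −0.66 was −0.62 at 1.5-fold, −0.19 scaled by shared peaks and −0.46 by total scaled reads, and the others were at −0.11 and −0.40 for the last 2. The share of start-covered genes at least 2-fold lower, 15.1%, was 12.8% at an FDR of at most 0.05, 6.38% at 1.5-fold, 1.38% scaled by shared peaks and 9.33% by total reads, and the others were at 11.1%, 1.24% and 9.39% for the last 3. The start-covered share was below that of the others at the FDR limit (13.2%), at 1.5-fold and by total reads, with overlapping intervals in each. The start-covered median was the lower in each setting tried, of which scaling by shared peaks could not change the order. At 1.5-fold the intervals overlapped (−0.65 to −0.49 and −0.60 to −0.52). None of these settings matched sg-Ctrl H3K4me3 level. In the highest bin of that level the start-covered median was −0.76 and that of the others −0.77, the reverse of the order in the other bins. The causes were not tested. The remaining 68 of 109 values stayed within the interval of the reported value or within 1.5 times of it. Entries without microRNA and snoRNA names and H3K4me3 peaks on the NUP210 peak alone were alternatives added after the data were seen.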
